A study of Rattus norvegicus with 2 samples.

Results

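The astrocytes described here were 371 of 3761 kept cells, 100 of 1968 in the WT library and 271 of 1793 in the Nuc1 library, from single-cell RNA sequencing of rat optic nerve. A cell was kept with at least 500 detected genes and at most 20% of its unique molecular identifiers (UMIs, each standing for 1 captured transcript molecule) from the 13 mitochondrial genes. It was then counted as an astrocyte when Gfap, Fabp7 and Aqp4 together reached 2000 counts per 1000000 UMIs of that cell (CPM), when Col1a1, Col3a1, Dcn and Lum, which are fibroblast genes, together stayed at or under 300 CPM, and when Dynlrb2, Cfap126, Ccdc153, Fam183a, Tmem212 and Fam216b, which are genes of motile cilia, together stayed under 500 CPM. These cells are called gated astrocytes below. They were selected on the measured levels of those 13 genes, which therefore describe the choice and test nothing.

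Each genotype had 1 library. The WT rats were Sprague Dawley, and the Nuc1 rats carried a spontaneous insertion in Cryba1, the gene of the lens protein βA3/A1-crystallin. Both libraries were labelled postnatal day 7, and how many animals of either sex were pooled in each is not given in the sources used here. The labels describe tissue that was taken and digested, while the series title and the study's methods speak of mixed glial culture, so the time the cells spent in culture is uncertain. The study made the libraries to look at STAT3 signaling in astrocytes. With 1 library per genotype there was no replicate, so no test was made between genotypes, and every interval below is an exact 95% interval that covers counting error only.

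Astrocytes are the glial cells that fill the spaces between axons and vessels. In the optic nerve they wrap bundles of axons, take up potassium and glutamate, move water at endfeet on vessels through the channel Aqp4, store and hand on metals and lipids, and stiffen their processes with the filament proteins Gfap and Vim. They can also take on a reactive state, in which filament, chaperone and immune genes go up.

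The WT library held 34517542 UMIs in 2107 barcodes and the Nuc1 library 35794685 UMIs in 1929 barcodes. Gated astrocytes gave 2474559 UMIs in WT and 6528062 in Nuc1, so that a sum of 3 counts, the floor used here for a count of 0, equals 1.21 CPM in WT and 0.460 CPM in Nuc1. A gated astrocyte had a median of 24837 UMIs in WT (2391 to 52482) and 22941 in Nuc1 (1166 to 50977). Mitochondrial UMIs made up a median of 12.6% in WT and 10.96% in Nuc1. Both libraries held 2 barcodes in common, of which 0 were gated in WT and 1 in Nuc1. Cryba1 had 0 UMIs in every barcode, so the genotype labels could not be checked from the gene that carries the mutation.

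Gated astrocytes made up 5.08% of kept WT cells (4.15% to 6.15%) and 15.1% of kept Nuc1 cells (13.5% to 16.9%). The shares moved with the limits, to 1.44% and 9.91% at a limit of 10% mitochondrial UMIs and to 3.35% and 14.4% with the fibroblast limit at 100 CPM. Their astrocyte sum had a median of 12582 CPM in WT (2091 to 31224) and 19424 CPM in Nuc1 (3612 to 43719). The fibroblast sum had a median of 58.7 CPM in WT and 0 CPM in Nuc1, and the cilia sum a median of 0 CPM in both. Astrocytes of the Nuc1 library were thus farther inside the astrocyte and fibroblast limits than those of the WT library. Just inside and just outside the limit of 2000 CPM lay 2091 and 1957 CPM in WT and 3612 and 1898 CPM in Nuc1. For the fibroblast limit the nearest values were 287 and 314 CPM in WT and 263 and 366 CPM in Nuc1, and for the cilia limit 433 and 510 CPM in WT and 474 and 517 CPM in Nuc1. Between 1000 and 2000 CPM of the astrocyte sum lay 18 WT and 7 Nuc1 cells, and between 2000 and 4000 CPM 9 and 5. Beside the 100 WT and 271 Nuc1 gated astrocytes, such cells weighed more in WT than in Nuc1. Another 23 WT and 77 Nuc1 cells reached the astrocyte sum but passed the fibroblast limit, and 10 and 103 passed the cilia limit. Those cells stayed among the other kept cells, and the Nuc1 library had more of them. Each of the 8 markers also stood higher in the other kept cells of Nuc1 than in those of WT. Genotype and library cannot be told apart with 1 library each.

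**Figure D1:**
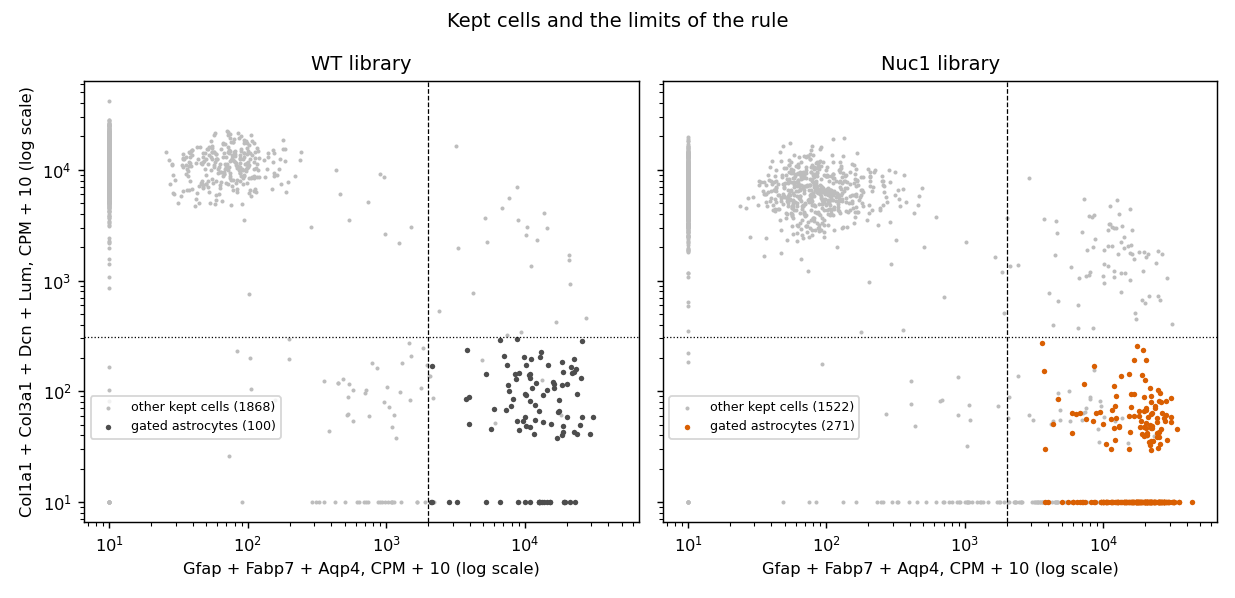
Each point is a kept cell of the WT library (left) or the Nuc1 library (right), with the summed CPM of Gfap, Fabp7 and Aqp4 on the x axis and of Col1a1, Col3a1, Dcn and Lum on the y axis, both with 10 CPM added and on a log scale. The 100 WT and 271 Nuc1 gated astrocytes lie right of the dashed limit and below the dotted limit, and grey cells in the same corner were left out for cilia genes.

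Most gated astrocytes held a UMI of most of the 8 markers, of which Gfap, Fabp7 and Aqp4 were in the rule. These 3 rule genes were all present in 93 WT and 269 Nuc1 cells, so the counts that follow partly restate the gate. A UMI of at least 6 of the 8 was present in 91 of 100 WT and 269 of 271 Nuc1 gated astrocytes, and all 8 were present in 45 WT cells and in 166 Nuc1 cells (61.3%). Each of the 8 was more than 2-fold higher in gated astrocytes than in all other kept cells in both libraries. The filament gene Gfap had 6359.5 CPM in WT and 10129 CPM in Nuc1, against 165 and 1002 CPM in the other kept cells. In single WT cells it ran from 0 to 17028 CPM with a median of 5314 CPM, and in Nuc1 cells from 0 to 32159 CPM with a median of 9411 CPM. The ranges overlapped broadly, and Nuc1 over WT gave a log2 ratio of 0.67 (0.65 to 0.70). The fatty acid carrier Fabp7 had 5552 CPM in WT and 7036 in Nuc1, and the water channel Aqp4 1715 and 1739.6 CPM, a log2 ratio of 0.02 (−0.03 to 0.07). Aqp4 was therefore close to level between the libraries while Gfap was not, although both counted toward the same sum.

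The other 5 markers played no part in the rule. Mlc1, a membrane protein of astrocyte endfeet, had 1275 CPM in WT and 2399 CPM in Nuc1, with 37.0 and 318 in the other kept cells. Mt3, the metallothionein of brain, had 6543 and 9278 CPM, and Cxcl14, a chemokine, 1239 and 1506 CPM. These 3 genes were higher in Nuc1 by less than 2-fold, with log2 ratios of 0.91, 0.50 and 0.28. Larger differences were seen for Tf, the iron carrier transferrin, at 1122 and 4871 CPM, and for Resp18, a protein of secretory granules, at 181 and 544 CPM. The log2 ratio was 2.12 (2.06 to 2.17) for Tf and 1.59 (1.45 to 1.73) for Resp18.

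**Figure D2:**
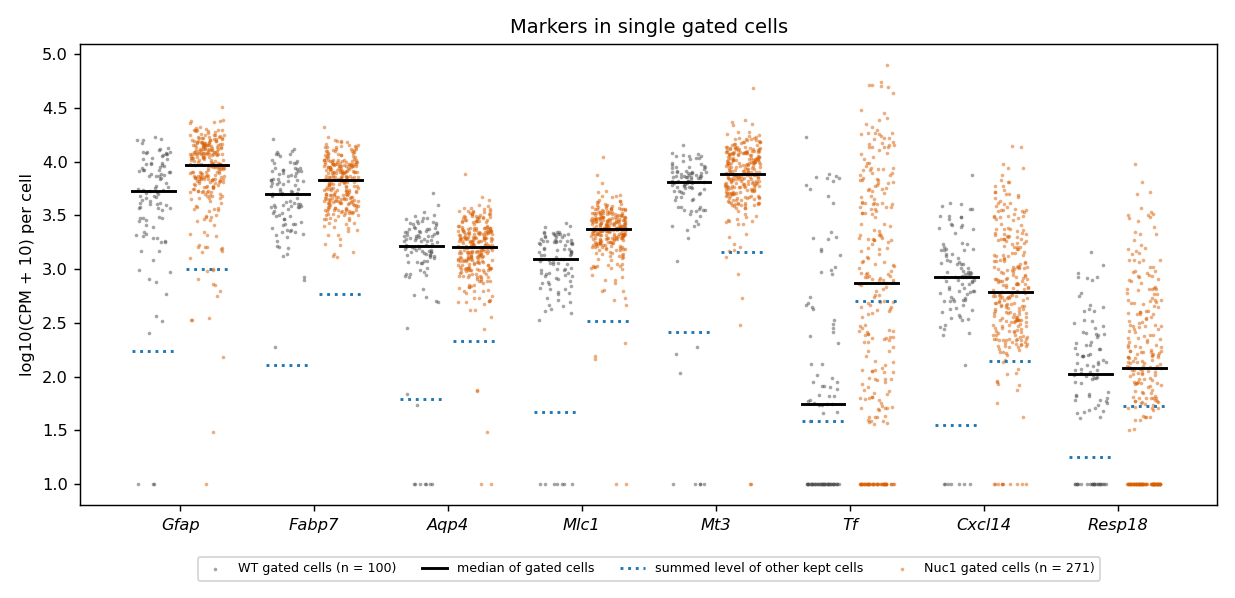
Points show log10 of CPM plus 10 in single gated astrocytes of WT (grey, n = 100) and Nuc1 (orange, n = 271) for the 8 markers, black bars the median over cells and dotted blue bars the summed level of all other kept cells. Tf spread the most, with 56 of 100 WT and 225 of 271 Nuc1 cells holding a UMI, whereas Fabp7 was found in all of them.

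Of 17 further astrocyte genes, 13 were more than 2-fold higher in gated astrocytes than in the other kept cells of both libraries, against 10.4% of all 6847 genes with at least 100 UMIs in gated astrocytes. The calcium-binding protein S100b had 3477 CPM in WT and 5676 in Nuc1, the glutamate transporter Slc1a3 1035 and 1212, and the transcription factor Sox9 289.7 and 382. Among the exceptions was the gap junction gene Gja1, with 756 and 703 CPM in gated astrocytes and 1619.8 and 1236 CPM in the other kept cells. Other genes on the list were read in few cells. Fgfr3 was not read in 97 of 100 WT and 267 of 271 Nuc1 cells, Hepacam in 80 and 180, and Aldh1l1 in 46 and 185. Several genes of mature astrocytes were scarce. Slc1a2, the main glutamate transporter of adult brain, had 11 UMIs in WT and 84 in Nuc1, the potassium channel Kcnj10 3 and 1, the gap junction gene Gjb6 0 and 1, and Pax2, a factor of optic nerve astrocyte precursors, 0 and 0. A low sum in these files does not show that a gene was silent, since the glycolytic genes Tpi1 and Pkm, which nearly all cells use, had only 4.85 and 11.3 CPM in WT and 5.21 and 7.97 in Nuc1. Vim, the filament gene of young glia, had 24363 and 24061 CPM.

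Markers of other cells were checked as whole lists. Of 8 oligodendrocyte genes, Mog, Mobp, Ermn and Opalin were at 0 in both libraries, and the list summed to 352 CPM in WT and 165 CPM in Nuc1, most of it Cnp. The list of 8 oligodendrocyte precursor genes summed to 735 CPM in WT and 339 CPM in Nuc1. That was above the 256 and 246 CPM of the other kept cells, and 3 genes of this list were more than 2-fold higher in gated astrocytes in both libraries. Within it Bcas1 had 533 UMIs in WT, 36.2% of them in 1 cell, and 20 in Nuc1. Olig1, a factor of the oligodendrocyte lineage, had 448 UMIs in WT and 302 in Nuc1, Sox10 had 32 and 0, and Gpr17 was at 0 in both. More than 1000 CPM of the precursor list was present in 14 of 100 WT and 16 of 271 Nuc1 cells. For the oligodendrocyte list these counts were 6 and 0. The microglia list of 10 genes summed to 110 CPM in WT and 2.60 CPM in Nuc1, with Cx3cr1 and P2ry12 at 0 in both, and 1 WT cell held all of the 186 Pf4 UMIs and 96.9% of the Cd68 UMIs of the WT sum. Endothelial Cldn5, Cdh5, Flt1 and Tie1 were at 0 in both. The second fibroblast list, which was not part of the rule, summed to 1873 CPM in WT and 527 CPM in Nuc1, mostly the fibronectin gene Fn1 at 1556 and 395 CPM. The mural cell list summed to 73.5 CPM in WT and 20.99 CPM in Nuc1, the neuron list to 955 and 869.6 CPM and the pigment list to 131 and 99.1 CPM. The Schwann cell list went the other way, at 502 and 582 CPM, as did a second list of motile cilia genes, at 188 and 214 CPM. RNA of other cells was thus higher in WT than in Nuc1 gated astrocytes for the fibroblast, oligodendrocyte, precursor and microglia lists and not for all lists, and its part in the differences below was not tested.

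Genes that set gated astrocytes apart from all other kept cells most strongly, ranked in the lower of the 2 libraries with 1 CPM added to both levels, were Phox2a, Aldh1a1, Resp18, Fabp7, Lcat, Cbs, Cxcl14, Scg3, Rit2, Slc15a2, Ednrb and Thrsp. Phox2a, a homeodomain factor best known from noradrenergic neurons, had 47.7 CPM in WT and 130.4 in Nuc1, 75.3-fold and 18.5-fold the level of the other kept cells. A UMI of it was found in 27 of 100 WT cells and 127 of 271 Nuc1 cells, so most gated astrocytes showed none. Aldh1a1, which makes retinoic acid from retinaldehyde, had 116 and 452 CPM against 2.72 and 29.9 elsewhere. Lcat, which esterifies cholesterol in lipoproteins, had 483 and 423 CPM, and the endothelin receptor gene Ednrb 270.4 and 275 CPM. The secretogranin gene Scg3 had 175 and 247 CPM, the peptide transporter gene Slc15a2 57.4 and 72.3, the lipogenic gene Thrsp 100.2 and 114, and Cbs, the first enzyme of transsulfuration, 21.4 and 50.1. Across the 6847 genes with at least 100 UMIs in gated astrocytes, 10.4% were at least 2-fold higher and 5.89% at least 2-fold lower than in the other kept cells of both libraries. These folds describe the gate, since cells were set apart by their RNA. Of the other kept cells, 1757 of 1868 in WT and 1264 of 1522 in Nuc1 had a fibroblast sum of at least 2000 CPM. Cells that reached the astrocyte sum but passed the fibroblast limit had 28.9 CPM of Phox2a in WT and 59.7 in Nuc1. In Nuc1 all 12 genes were lower in such cells past the fibroblast or cilia limit than in gated astrocytes. The same held in WT except for Lcat (600 CPM past the cilia limit), Cbs and Thrsp (24.3 and 103 CPM past the fibroblast limit).

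Forebrain and eye factors were among the transcription factors read in these cells. Lhx2 had 142 CPM in WT and 137 CPM in Nuc1 (7.38 and 20.7 in the other kept cells), Emx2 35.6 and 37.4, and Pax6 25.9 and 28.5. All 3 were higher in gated astrocytes than elsewhere in both libraries. Sox2, a factor of neural progenitors, had 541 and 303 CPM, a log2 ratio of −0.83 (−0.94 to −0.73). Of 23 factors with at least 100 UMIs, 0 were at least 2-fold higher in Nuc1 and 3 (Sox8, Hes1 and Olig2) at least 2-fold lower, with a median log2 ratio of −0.27, against 1.78% higher and 4.26% lower over all genes. Sox8 was past 2-fold under 9 of 17 alternatives and turned to 0.85 without cells holding other glial RNA and to 0.67 with the astrocyte limit at 4000 CPM.

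In the comparison of Nuc1 with WT gated astrocytes, 122 of 6847 genes (1.78%) were at least 2-fold higher and 292 (4.26%) at least 2-fold lower in Nuc1. The median log2 ratio was −0.12, so the centre of all genes lay slightly below 0. Scaling by edgeR's TMM method moved all ratios up by 0.14 and gave 170 higher and 228 lower genes, and scaling to a median of 0 moved them up by 0.12 and gave 166 and 235. The same ratio was also taken between the 1757 WT and 1264 Nuc1 collagen-rich cells, meaning other kept cells with a fibroblast sum of at least 2000 CPM, a comparison chosen after the data were seen. Of the genes past 2-fold in gated astrocytes, 49 of the higher and 73 of the lower were past 2-fold in the same direction in collagen-rich cells, and 7 and 17 were past 2-fold in the opposite direction. The share of all genes past 2-fold in collagen-rich cells is not given here, so these counts have no background beside them. Cells of both kinds came from the same 2 libraries, so a difference they share cannot be told apart from a difference between libraries.

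**Figure D3:**
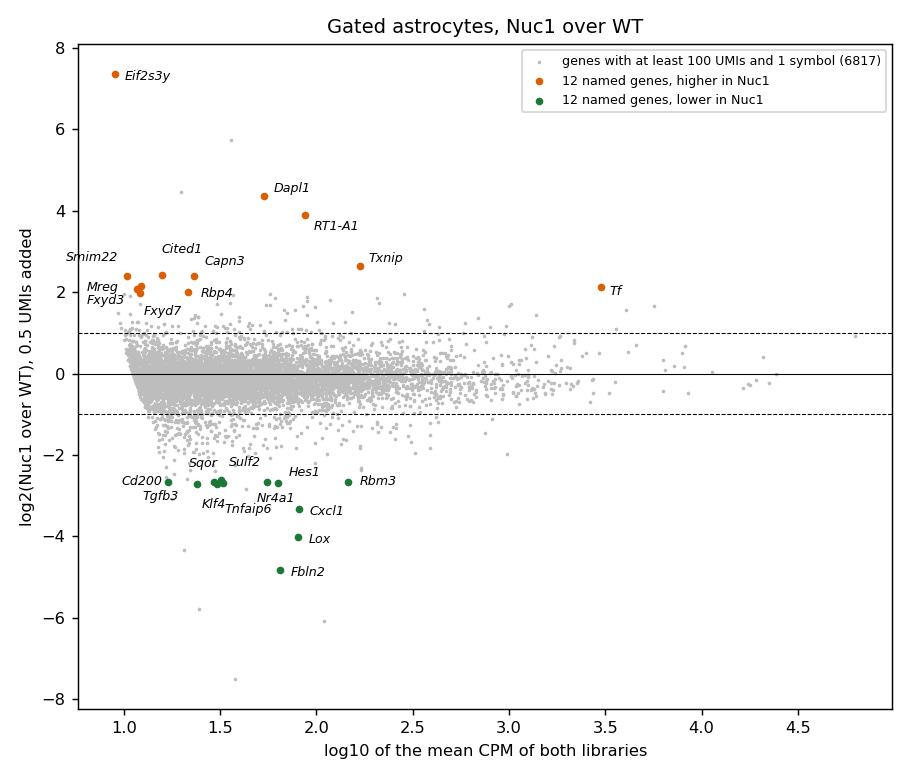
Each point is 1 of 6817 genes with at least 100 UMIs in gated astrocytes and a symbol of its own, with log10 of its mean CPM on the x axis and the log2 ratio of Nuc1 over WT (0.5 UMIs added) on the y axis. Dashed lines mark 2-fold, orange points the 12 named genes higher in Nuc1 and green points the 12 named genes lower in Nuc1, from Eif2s3y at the top to Fbln2, the lowest of the green points.

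Among 5388 genes that met the naming rule, those higher in Nuc1 by the widest margin were Eif2s3y, Dapl1, RT1-A1, Txnip, Cited1, Smim22, Capn3, Fxyd3, Tf, Mreg, Rbp4 and Fxyd7. The rule left out genes of which 1 cell held over 20% of the UMIs of both libraries together (28 genes), genes whose ratio changed sign when cells were thinned to 10000 UMIs (973), and mitochondrial, ribosomal protein, unnamed and repeated symbols. Within the WT sum alone, 1 cell still held 72.7% of the 11 UMIs of Mreg, 33.3% of the 12 of Fxyd7, 25% of the 12 of Dapl1 and of the 8 of Smim22, and 21.6% of the 2777 of Tf. The Y-linked gene Eif2s3y was read 0 times in 100 WT cells and 118 times in 52 of 271 Nuc1 cells (19.2%). Its Nuc1 level was 14.9-fold (log2 3.90) that of the floor of 3 WT counts. That floor is not a lower bound, and the exact interval of the log2 ratio began lower, at 3.58. Kdm5d, also Y-linked, had 0 and 14 UMIs. In the other kept cells Eif2s3y had 3 UMIs in WT and 783 in Nuc1, so the difference was not limited to gated astrocytes. RNA of the Y chromosome was thus read in Nuc1 gated astrocytes and in 0 of the WT ones, and the sex of the pooled animals and the genotype cannot be told apart. RT1-A1, a classical major histocompatibility gene, had 27 UMIs in WT and 1065 in Nuc1, a log2 ratio of 3.90 (3.35 to 4.51), and 3.49 in collagen-rich cells. RT1-A2, its near copy, went the other way with 95.8 and 42.6 CPM, and how reads were divided between such copies or alleles is uncertain. Their light chain B2m had 2299 and 1914 CPM.

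Dapl1, a gene known from epithelial differentiation, had 12 UMIs in 8 WT cells and 668 UMIs in 83 Nuc1 cells, and its log2 ratio was 4.40 (3.58 to 5.36). Txnip, which binds thioredoxin and limits glucose uptake, had 46.1 CPM in WT and 289 CPM in Nuc1, a log2 ratio of 2.65 (2.38 to 2.94). In both libraries Txnip was lower in gated astrocytes than in the other kept cells, at 564 and 793 CPM, and its ratio in collagen-rich cells was 0.55. Rbp4, a carrier of retinol, had 8.49 CPM in WT and 34.6 CPM in Nuc1. Chgb and Ccl5 had larger ratios still, but 1 Nuc1 cell held 53.8% of the Nuc1 UMIs of Chgb and 98.7% of those of Ccl5. Chgb had a UMI in 20 Nuc1 cells and stayed past 2-fold under all 17 alternatives, with a lowest log2 ratio of 2.48. Ccl5 was not past 2-fold without the cell with the most UMIs, so its ratio describes 1 cell.

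Lower in Nuc1 were Fbln2, Lox, Cxcl1, Tnfaip6, Tgfb3, Hes1, Klf4, Sqor, Nr4a1, Cd200, Rbm3 and Sulf2. Fbln2, a matrix protein on the second fibroblast list, had 125 CPM in WT and 4.29 CPM in Nuc1, a log2 ratio of −4.87 (−5.48 to −4.31). It was higher in WT gated astrocytes than in the other kept WT cells, at 13.3 CPM. Lox, which crosslinks collagen, had 151 and 9.19 CPM, far under the 1666 and 763 CPM of the other kept cells. The chemokine gene Cxcl1 had 148 CPM in WT, with a UMI in 45 of 100 cells, and 14.6 CPM in Nuc1, with a UMI in 30 of 271 cells. Hes1, a target of Notch, had 109.9 and 16.9 CPM, a log2 ratio of −2.71 that lay near the −2.38 of collagen-rich cells. Rbm3, the cold-shock RNA-binding protein, had 253 and 40.1 CPM. Bcas1, Pf4, Cd68 and Acta2 were also lower, but over 20% of their UMIs in both libraries together came from 1 cell.

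Metal-binding genes stood at the upper end of the lists. Of 10 members with at least 100 UMIs, 3 (Mt1, Tf and Cp) were at least 2-fold higher in Nuc1 and 0 at least 2-fold lower, against 1.78% and 4.26% of all genes, and the median log2 ratio was 0.68 against −0.12 over all genes. Members were chosen with earlier results of these data known, and Tf and Mt3 are also markers. Mt1, a metallothionein that binds zinc and copper, had 736 CPM in WT and 2012 CPM in Nuc1, and in single cells its median was 527 CPM in WT (0 to 7239.9) and 1044 CPM in Nuc1 (0 to 26077). The ranges overlapped, and the log2 ratio was 1.45 (1.38 to 1.52), while in collagen-rich cells it was −1.05. Mt2A, its close relative, had 1317 and 2113 CPM, a log2 ratio of 0.68, and Mt3 one of 0.50. The copper oxidase gene Cp had 59.0 and 142 CPM. Fth1, the heavy chain of the iron store ferritin, took 43618 CPM in WT and 82156 CPM in Nuc1, a log2 ratio of 0.91. In collagen-rich cells it had 6474 and 12916 CPM. The light chain Ftl1 had 846 and 846 CPM, a log2 ratio of 0.00.

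Promoters of the 3 metallothionein genes are shown because these genes lie within 23.1 kilobases, all were higher in Nuc1, and metallothioneins are the textbook case of control through metal response elements, which bind the zinc-sensing factor MTF-1. The sequences are the 250 bases before each start site, from RefSeq's annotation of GRCr8, a build that the files do not name, all read from the minus strand at chr19:10832976-10833225 for Mt1, chr19:10838709-10838958 for Mt2A and chr19:10856081-10856330 for Mt3. Capitals mark the core of the element, TGCACNC or TGCGCNC on either strand.
Mt1: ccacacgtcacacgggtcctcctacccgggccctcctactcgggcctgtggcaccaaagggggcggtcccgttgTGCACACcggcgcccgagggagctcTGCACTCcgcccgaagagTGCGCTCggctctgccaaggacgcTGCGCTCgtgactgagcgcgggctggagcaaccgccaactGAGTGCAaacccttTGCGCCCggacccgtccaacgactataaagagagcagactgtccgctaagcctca
Mt2A: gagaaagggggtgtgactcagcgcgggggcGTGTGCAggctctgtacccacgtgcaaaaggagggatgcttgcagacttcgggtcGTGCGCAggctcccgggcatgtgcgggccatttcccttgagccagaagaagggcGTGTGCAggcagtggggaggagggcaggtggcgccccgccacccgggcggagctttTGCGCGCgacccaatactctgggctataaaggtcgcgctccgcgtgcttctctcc
Mt3: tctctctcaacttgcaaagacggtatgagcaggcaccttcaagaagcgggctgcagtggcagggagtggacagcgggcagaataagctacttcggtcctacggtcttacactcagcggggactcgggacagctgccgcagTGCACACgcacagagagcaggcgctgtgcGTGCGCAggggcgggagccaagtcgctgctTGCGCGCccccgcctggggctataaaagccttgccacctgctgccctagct
The core was found 6 times for Mt1, 4 times for Mt2A and 3 times for Mt3. At least 1 core was held by 20.6% and at least 3 by 1.17% of all 33469 rat promoters of this length. Among the tested members of the list, 5 of 7 with a promoter entry held the core, and 4 of those (Mt1, Mt2A and Mt3 among them) held at least 3. Of the stress genes described next, most of which were lower in Nuc1, 5 of 10 tested members held the core and 0 held at least 3. A match is a description of letters, and binding was not measured. Metallothioneins are the textbook carriers of this element, so a high share among them was known before the search. Its part in the differences between genotypes was not tested.

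Immediate-early and stress genes, which cells switch on within minutes of handling or digestion, stood at the lower end. Of 15 members with at least 100 UMIs, 10 were at least 2-fold lower in Nuc1 and 0 at least 2-fold higher, against 4.26% and 1.78% of all genes. Their median log2 ratio was −1.41, and −0.86 in collagen-rich cells. Fos, a subunit of the AP-1 factor, had 1096 CPM in WT and 401 CPM in Nuc1, with a median over cells of 988 CPM in WT (0 to 9849) and 325 CPM in Nuc1 (0 to 2302). Egr1, a growth response factor, had 607 and 171 CPM, with medians over cells of 536 and 110.3 CPM. In both cases the ranges overlapped and the middle of the WT cells lay higher. The log2 ratio was −1.45 (−1.53 to −1.37) for Fos, −1.83 (−1.94 to −1.71) for Egr1, −1.62 for Atf3, −1.52 for the phosphatase gene Dusp1, −1.67 for the RNA-decay factor Zfp36 and −1.21 for the antiproliferative gene Btg2. Nr4a1, an orphan nuclear receptor, had a ratio of −2.66, close to the −2.62 of collagen-rich cells. Ier3 differed in this respect, at −1.41 in gated astrocytes and 0.30 in collagen-rich cells, and Jund was higher in Nuc1 at 0.75. Both libraries were digested, and whether handling differed between them is not given in the sources used here.

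Promoters of Btg2 and Dusp1 are shown as 2 members of this list that carry the cyclic AMP response element TGACGTCA, the palindrome read by CREB, in capitals. They are the 250 bases before the start site in GRCr8 from RefSeq, at chr13:48087691-48087940 on the minus strand for Btg2 and chr10:17184603-17184852 on the plus strand for Dusp1.
Btg2: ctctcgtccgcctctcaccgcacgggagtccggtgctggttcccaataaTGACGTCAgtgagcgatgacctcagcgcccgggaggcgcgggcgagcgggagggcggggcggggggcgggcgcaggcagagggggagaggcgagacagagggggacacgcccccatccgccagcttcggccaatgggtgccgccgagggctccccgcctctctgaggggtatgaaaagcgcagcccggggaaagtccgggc
Dusp1: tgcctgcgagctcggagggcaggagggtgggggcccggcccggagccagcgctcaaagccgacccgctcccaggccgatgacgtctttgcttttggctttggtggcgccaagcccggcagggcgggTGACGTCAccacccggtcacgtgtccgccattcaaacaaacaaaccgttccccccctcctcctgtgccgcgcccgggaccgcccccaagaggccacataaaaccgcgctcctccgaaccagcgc
The element was found once in each, and in 3 of the 10 tested members with a promoter entry, Jund being the third. Of all 33469 promoters 1.59% held it. Jund went the other way in Nuc1, so members with the element did not share 1 direction.

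**Figure D4:**
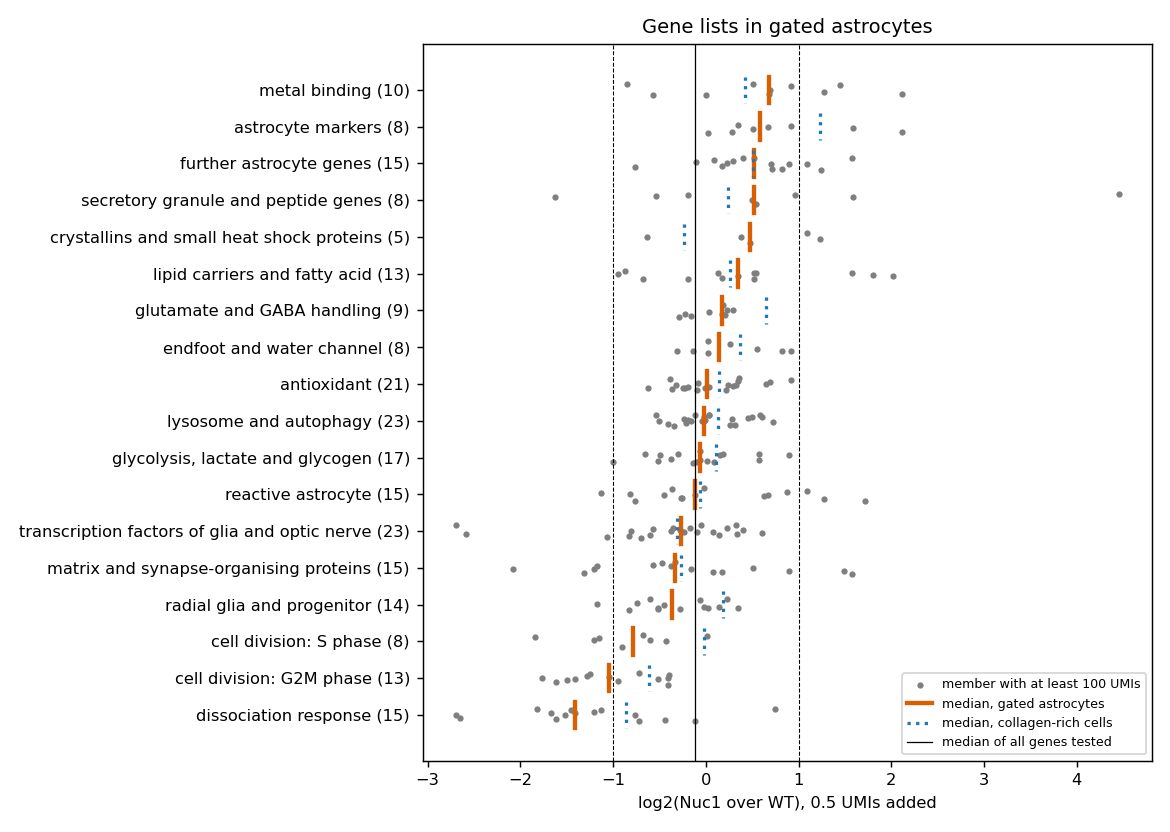
Grey points are log2 ratios of Nuc1 over WT in gated astrocytes for members of 18 gene lists with at least 100 UMIs (number in brackets), orange bars their median, dotted blue bars the median in collagen-rich cells and the black line the median of all genes, −0.12. Medians ran from 0.68 for metal binding to −1.41 for the dissociation response.

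Genes of cell division were lower in Nuc1 gated astrocytes at the limits used here. Of 13 genes of the G2 and M phases, 7 were at least 2-fold lower (among them Mki67 at 56.6 and 16.5 CPM, whose ratio turned to 0.38 with the fibroblast limit at 100 CPM, and Cdk1 at 82.0 and 26.7 CPM) and 0 at least 2-fold higher, with a median log2 ratio of −1.04. Of 8 S-phase genes, 3 were at least 2-fold lower (the helicase genes Mcm2 and Mcm6 and the reductase gene Rrm1, of which Mcm2 was so under 11 of 17 alternatives), with a median of −0.79. Over all genes 4.26% were at least 2-fold lower. In collagen-rich cells the median was −0.62 for the G2 and M list and −0.02 for the S-phase list. Cells with over 500 CPM of the G2 and M list made up 14 of 100 WT (14%, 7.87% to 22.4%) and 7 of 271 Nuc1 gated astrocytes (2.58%, 1.04% to 5.25%). The fibroblast sum moved with this result. Over 100 CPM of it, 8 of 34 WT and 1 of 13 Nuc1 cells were dividing, and at or under 100 CPM 6 of 66 WT (9.09%, 3.41% to 18.7%) and 6 of 258 Nuc1 cells (2.33%, 0.858% to 4.99%). With the limit set at 100 CPM, the median of the G2 and M list turned to 0.99, so its direction changes with that limit, whereas the share of dividing cells stayed higher in WT. The split by fibroblast sum was chosen after the data were seen.

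Of 13 lipid carriers and fatty acid genes, 3 (among them Clu and Rbp4) were at least 2-fold higher in Nuc1 and 0 at least 2-fold lower, against 1.78% and 4.26% of all genes, with a median of 0.34. Clu, the extracellular chaperone clusterin, had 2045 CPM in WT and 6072 CPM in Nuc1, with medians over cells of 1543 and 4791 CPM, a log2 ratio of 1.57 (1.53 to 1.61) and 1.79 in collagen-rich cells. Apoe, the main lipid carrier of astrocytes, had 3416 and 4892 CPM, a log2 ratio of 0.52. Among 5 crystallins and small heat shock proteins, Hspb1 (2284 and 4877 CPM) and Crym, a thyroid hormone-binding protein (142 and 334 CPM), were at least 2-fold higher, and the αB-crystallin gene Cryab had 738 and 475 CPM, a log2 ratio of −0.64. Of the β-crystallins, Crybb1 had 22 and 15 UMIs.

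Genes on the list of reactive astrocyte genes went in both directions. Of 15 members, 3 (Hspb1, Cp and the complement gene C3, at 14.1 and 46.6 CPM) were at least 2-fold higher in Nuc1 and 1 (Emp1) at least 2-fold lower, against 1.78% and 4.26% of all genes, with a median log2 ratio of −0.12, equal to that of all genes. Lcn2, a secreted iron-binding protein often used as a sign of reactivity, had 29 UMIs in WT and 21 in Nuc1, and Serpina3n 4 and 3. Among 15 matrix and synapse-organising genes, Chrdl1 (37.2 and 104 CPM) and Lgi4 (38.8 and 116 CPM), both secreted proteins, were at least 2-fold higher in Nuc1. Thbs2, Ncan, Vcan and Tnc, which are matrix proteins, were at least 2-fold lower, Tnc at 597 and 263 CPM. Vegfa, the vessel growth factor, had 37.2 and 7.05 CPM, a log2 ratio of −2.40 (−2.94 to −1.87).

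In the pathway the study asked about, most genes lay within 2-fold, as did most of all genes. Of 16 JAK-STAT and PTP1B pathway genes with at least 100 UMIs, 0 were at least 2-fold higher and 1 (the insulin receptor substrate gene Irs2) at least 2-fold lower, near the 1.78% and 4.26% of all genes, with a median of −0.06. Stat3, the transcription factor, had 126 CPM in WT and 129 CPM in Nuc1, a log2 ratio of 0.03 (−0.16 to 0.22). The kinase gene Jak2 had 34.8 and 28.2 CPM (−0.30, −0.68 to 0.08), the receptor subunit gene Il6st 27.1 and 23.7 (−0.19, −0.61 to 0.25), Pik3ca 51.3 and 50.4 (−0.03, −0.33 to 0.28), and Ptpn1, which encodes PTP1B, 35.2 and 33.7 (−0.06, −0.43 to 0.31). All 5 intervals include 0 and so do not show a difference at this depth. The leptin receptor gene Lepr had 6 and 11 UMIs, too few to compare. From the same libraries, the study reported Jak2 and Lepr as lower in Nuc1, and Il6st and Pik3ca as not noticeably changed. It read them in a cluster of astrocytes and not in the gate used here. By qPCR the study also reported Jak2 and Lepr as lower in mouse βA1-crystallin knockdown astrocytes. It measured PTP1B activity in Nuc1 and in mouse astrocytes, and STAT3 phosphorylation in mouse astrocytes, which RNA levels do not show. Irs2 had 76.4 and 19.8 CPM, and −1.06 was its log2 ratio in collagen-rich cells against −1.95 here.

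**Figure D5:**
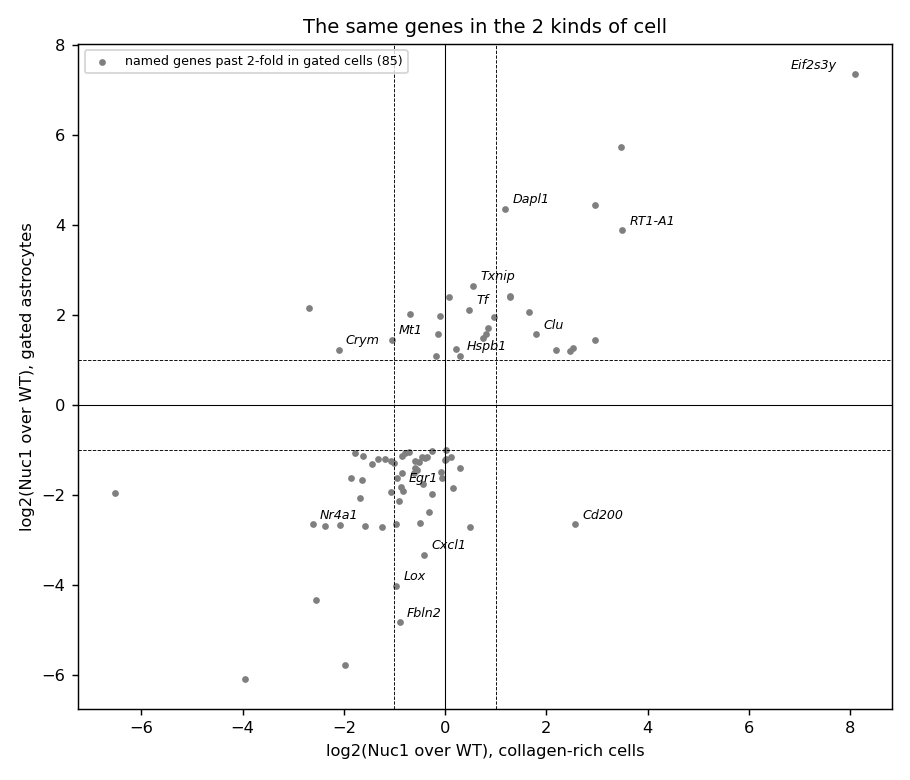
Points are 85 named genes past 2-fold in gated astrocytes, with the log2 ratio of Nuc1 over WT in collagen-rich cells on the x axis and in gated astrocytes on the y axis, and dashed lines at 2-fold. RT1-A1 and Nr4a1 lie near the same value on both axes, while Crym, Mt1 and Cd200 lie past 2-fold on opposite sides.

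Gated astrocytes also differed among themselves. After each cell was thinned to 10000 UMIs, which left out 4 WT and 19 Nuc1 cells, the genes with the highest ratio of variance to mean, ranked by the lower of the 2 libraries, were Fth1, Tf, Tmsb4x, Vim, Gfap, Apoe, Clu, Cst3, Tagln, Hspb1, Fabp5 and Fabp7. The ratio was 203 in WT and 257 in Nuc1 for Fth1 and 62.3 and 216 for Tf, against a median of 1.21 and 1.16 over 2279 genes. Tf was at 0 in 52 of 96 WT cells (54.2%) and 59 of 252 Nuc1 cells (23.4%), and reached 50 UMIs in 10 WT cells (10.4%, 5.11% to 18.3%) and 64 Nuc1 cells (25.4%, 20.1% to 31.2%). The tenth of cells with the most Tf held 75.3% of its UMIs in WT and 59.5% in Nuc1. A Tf UMI was also found in 14.6% of WT and 21.3% of Nuc1 collagen-rich cells at the same thinned depth, a share that was itself higher in Nuc1. The source of those UMIs was not tested. Most transferrin UMIs were thus held by few astrocytes in each library.

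Several pairs of genes went together over cells with the same sign in both libraries, given here as Spearman's rho over 96 WT and 252 Nuc1 cells that share a library and a thinned depth. Ranked by the lower of the 2 values, Gfap went most closely with Atp1b2, a sodium pump subunit (0.63 and 0.41), and Fabp7 with S100a16 (0.56 and 0.38), although Pla2g7 was closer to Fabp7 in WT (0.57) and Gpm6b in Nuc1 (0.39). Gfap and Fabp7, both in the rule, were only weakly related to each other (0.34 and 0.12). Among anchors chosen after the data were seen, Clu went with Apoe (0.74 and 0.52), Mt3 with Mt2A (0.52 and 0.65), Fos with Egr1 (0.64 and 0.55) and Tf with Cxcl14 (0.48 and 0.39). Cxcl14 in turn went with the lysosomal protease gene Ctsl (0.53 and 0.53) and with Cryab (0.50 and 0.44).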

How the data were processed

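Libraries were made with the 10X Genomics 3′ kit, 1 per genotype, and the submitters' processing notes name Cell Ranger 3.1.0, STAR 2.7 and Seurat 3.1.0 and 3.1.1. The authors deposited raw UMI counts per gene and barcode, without normalization, and a genome build is not given in the sources used here. Counts were read in Python 3.11.15 with scanpy 1.11.5. Scrublet (expected rate 2%) marked 5 WT and 11 Nuc1 kept cells, of which 1 and 0 were gated, and they were left in, so doublets can remain. For each gene UMIs were summed over the gated astrocytes of a library and divided by their total, as CPM (per 1000000 UMIs). Sums have exact Poisson, shares exact binomial (Clopper-Pearson) and ratios exact conditional 95% intervals, for counting error only. Counts of called genes used ratios with 0.5 UMIs added to each sum and scaled to its total, over genes with at least 100 UMIs, and called means past 2-fold. No test was made, because cells of 1 library are not replicates. Counting was at the 3′ end, so levels were not compared between genes of different length.

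Named genes are the genes of the rule and markers, those the paper names for this experiment, of each of 41 lists the members with most UMIs or past 2-fold, the 12 genes highest over other kept cells, the 12 highest and 12 lowest ratios among genes without over 20% of the UMIs of both libraries in 1 cell and with the same sign after thinning, and the most variable and best correlated genes. Other genes were named after their values were seen, and a few genes are not reported here. The members and all lists were chosen with earlier results of these data known. Steps were tested on simulated counts. Alternatives changed the limits of the rule, the scaling (edgeR 4.0.16), the depth, the weight of cells and the UMI minimum. Promoters were matched by symbol (5 of 5) to RefSeq's GRCr8 table.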

Additional observations from a re-analysis of the deposited data

Results flagged for a closer look

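Crym, Mt1 and Cd200 were past 2-fold between the genotypes in opposite directions in gated astrocytes and in collagen-rich cells. With 0.5 UMIs added, the log2 ratio of Nuc1 over WT for Crym was 1.23 in gated astrocytes and −2.10 in collagen-rich cells. For Mt1 it was 1.45 and −1.05. For Cd200, a surface protein that restrains microglia, it was −2.65 and 2.57, with 29.5 and 4.596 CPM in gated astrocytes and 23.9 and 142 CPM in collagen-rich cells. With 1 library per genotype the difference between the kinds of cell was not tested.

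Barcodes outside the filter on cells also met the astrocyte limits. These were 10 of 139 in the WT library (7.19%) and 50 of 136 in the Nuc1 library (36.8%), and 9 and 43 of them had over 20% mitochondrial UMIs. They entered no sum above, and their part in the share of gated astrocytes was not tested.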

How the results depend on the processing

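No paired analysis was possible because WT and Nuc1 had 1 library each. Of 85 named genes past 2-fold, 74 kept their sign under all 17 alternatives and 53 stayed past 2-fold under all of them. The share of gated astrocytes was 1.44% in WT and 9.91% in Nuc1 at a limit of 10% mitochondrial UMIs and 6.20% and 19.0% without a fibroblast limit. It was 3.35% in WT with the fibroblast limit at 100 CPM, and in Nuc1 12.7% with the cilia limit at 100 CPM and 20.5% without one. Genes at least 2-fold higher numbered 217 at 10% mitochondrial UMIs, 248 without a cilia limit, 319 with at least 20 UMIs, 1724 with no minimum and 54 with at least 500 UMIs. Those at least 2-fold lower numbered 128 after thinning to 10000 UMIs, 828 with at least 20 UMIs, 2372 with no minimum and 65 with at least 500 UMIs, so both counts depend on the minimum. Leaving Fth1 and mitochondrial UMIs out of the totals was added after the data were seen.

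Directions turned as follows, as log2 ratios, for genes that were all lower in Nuc1 as reported except Il33, which was higher. With the fibroblast limit at 100 CPM, the G2 and M list had a median of 0.99, Cdca3 0.19, Cenpf 1.38, Hmmr 1.72, Mki67 0.38 and Tpx2 0.98. Outside division Hmmr was at 3.17 and Tpx2 at 0.066. At 10% mitochondrial UMIs, which left 18 WT cells, Cd68 was at 3.32, Il33 at −0.34 and Tubb3 at 1.02. Without cells holding other glial RNA, Cd68 was at 0.44 and Sox8 at 0.85, and without the cell with most UMIs Cd68 was at 0.44. Sox8 was at 0.67 with the astrocyte limit at 4000 CPM, Il33 at −0.029 as a mean over cells, Col3a1 at 0.23 without a fibroblast limit and Nnat at 0.85 without a cilia limit. The cause was not tested.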

Other observations

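Lists of housekeeping and uptake genes had medians near 0 between the genotypes. Of 23 lysosome and autophagy genes and 21 antioxidant genes with at least 100 UMIs, 0 were at least 2-fold higher or lower in Nuc1, with median log2 ratios of −0.02 and 0.01. Over all genes 1.78% were at least 2-fold higher and 4.26% lower, so that counts this low are near the background. The protease gene Ctsb had 449 CPM in WT and 744 in Nuc1, and the glutathione transferase gene Gstm1 516 and 972. Of 9 genes of glutamate and GABA handling, 0 were past 2-fold, with a median of 0.17. Of 17 genes of glycolysis, lactate and glycogen, 1 (the hexokinase gene Hk1, 21.0 and 10.4 CPM) was at least 2-fold lower, a call it kept under 8 of 17 alternatives, with a median of −0.06, and the aldolase gene Aldoc had 923 and 1713 CPM.

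Some genes named for other tissues were read in gated astrocytes above the other kept cells of both libraries. Rpe65, an enzyme of the visual cycle known from pigment epithelium, had 104 CPM in WT and 70.2 in Nuc1, against 3.61 and 8.01, while Tyr, needed for pigment, was at 0 in both. Stmn2, a tubulin regulator known from neurons, had 917 and 849 CPM, against 575 and 289.6, while Nefl and Slc17a6 were at 0. The chemokine gene Ccl2 had 230.3 and 93.7 CPM, and Cntf, a survival factor of neurons, 116 and 98.5.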
